A study of Mus musculus with 3 samples.

Results

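The genes of cholesterol and fatty acid synthesis were followed in 3 single-cell RNA-sequencing libraries of mouse fibroblasts undergoing conversion to motor neurons. The set holds 29 listed symbols of the SREBP pathway out of 31744 symbols in the matrices, and all 29 were found in each library. Of these, 21 form the sterol arm and 8 the fatty acid arm. Every cell came from Hb9::GFP mouse embryonic fibroblasts, whose GFP reports activity of Hb9 (Mnx1), a gene of motor neurons. All cultures received the cassettes LNI (mLhx3-P2A-mNgn2x3HA-T2A-Isl1) and DDRR (HRAS(G12V)-IRES-p53DD), that is 3 motor neuron transcription factors together with an activated RAS and a fragment that blocks p53.

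The first library holds Hb9::GFP-positive sorted cells grown with supplements and taken at 14 dpi, as the labels write time. BDNF, CNTF, GDNF and FGF, all growth factors, made up the supplements together with RepSox, an inhibitor of a TGF-beta receptor kinase. The second holds Hb9::GFP-positive cells of 14 dpi cultured without supplements. The third holds cells of 4 dpi cultured with supplements and gated on low CellTrace-FarRed, a dye diluted by division, and it was dissociated with trypsin where both 14 dpi libraries were dissociated with papain and DNase. Since a group is 1 library, differences lack any replicate check, no test is given, and every interval covers counting error only.

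SREBP transcription factors are held in the endoplasmic reticulum by the proteins Scap and Insig while sterols are plentiful. When sterols run low, Scap carries SREBP to the Golgi, where proteases release the part that enters the nucleus and switches on the genes of sterol synthesis, fatty acid synthesis and lipoprotein uptake. SREBP-2 acts mainly on the sterol genes, and fatty acid genes answer to SREBP-1 as well. Neurons need cholesterol and unsaturated fatty acids for axon and synaptic membranes, and dividing cells need them to build new membranes.

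SREBP proteins bind sterol regulatory elements, usually beside NF-Y, which binds the box CCAAT. RefSeq promoter windows of 300 bases (250 before and 50 after the start of the gene, build GRCm38.p6, which is not the GRCm39 build of the matrices) were available for 22 of the 29 members. The box CCAAT stood on either strand in at least 1 window of 18 of these 22, and 41.1% of all symbols with windows have it. The sterol element was searched as TCACNCCAC on both strands. It occurred in 1 member, Hmgcs1, and 1.44% of all symbols have it. The E-box TCACGTGA occurred in 0 of the 22, against 1.12% of all symbols. Such a match is a description of letters, not of bound sites, and a missing match says only that these letters are not in the window. The promoters shown are that of Hmgcs1, with the sterol element and 4 NF-Y boxes, and those of the members with windows that stood highest (Mvk, Ebp) and lowest (Insig1, Acly) with over without supplements. Capitals mark the NF-Y box, read as CCAAT or on the other strand as ATTGG, and in Hmgcs1 also the element TCACCCCAC.
Hmgcs1, chr13:119690101-119690400, plus strand: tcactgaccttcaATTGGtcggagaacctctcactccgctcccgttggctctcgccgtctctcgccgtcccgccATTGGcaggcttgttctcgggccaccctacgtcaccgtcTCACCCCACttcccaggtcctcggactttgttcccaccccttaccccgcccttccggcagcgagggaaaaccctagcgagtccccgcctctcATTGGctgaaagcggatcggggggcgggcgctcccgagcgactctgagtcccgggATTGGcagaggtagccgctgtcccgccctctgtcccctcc
Mvk, chr5:114444019-114444318, plus strand: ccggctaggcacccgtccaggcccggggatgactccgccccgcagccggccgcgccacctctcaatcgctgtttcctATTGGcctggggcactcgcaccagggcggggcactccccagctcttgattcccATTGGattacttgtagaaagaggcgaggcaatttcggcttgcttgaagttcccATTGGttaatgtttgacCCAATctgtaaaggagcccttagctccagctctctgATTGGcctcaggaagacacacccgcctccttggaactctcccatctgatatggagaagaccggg
Ebp, chrX:8193463-8193762, minus strand: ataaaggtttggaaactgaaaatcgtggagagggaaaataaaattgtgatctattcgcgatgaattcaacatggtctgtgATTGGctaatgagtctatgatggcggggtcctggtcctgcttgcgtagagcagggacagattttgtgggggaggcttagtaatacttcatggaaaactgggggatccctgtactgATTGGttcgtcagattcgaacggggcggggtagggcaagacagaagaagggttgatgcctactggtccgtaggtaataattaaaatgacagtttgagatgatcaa
Insig1, chr5:28071162-28071461, plus strand: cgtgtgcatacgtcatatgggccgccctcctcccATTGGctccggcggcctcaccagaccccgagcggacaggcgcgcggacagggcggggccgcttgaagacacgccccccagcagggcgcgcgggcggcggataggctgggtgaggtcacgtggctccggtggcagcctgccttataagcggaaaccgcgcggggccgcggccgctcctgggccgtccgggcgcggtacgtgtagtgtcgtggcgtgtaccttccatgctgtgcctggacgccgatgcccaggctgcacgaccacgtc
Acly, chr11:100527951-100528250, minus strand: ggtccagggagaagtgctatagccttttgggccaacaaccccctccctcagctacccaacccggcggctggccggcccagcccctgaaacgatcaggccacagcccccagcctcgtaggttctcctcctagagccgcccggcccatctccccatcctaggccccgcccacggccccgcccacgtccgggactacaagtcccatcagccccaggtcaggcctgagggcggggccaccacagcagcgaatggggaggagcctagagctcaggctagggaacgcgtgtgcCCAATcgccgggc
The Mvk window holds 5 NF-Y boxes, the Ebp window 2, and the Insig1 and Acly windows 1 each.

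After removal of barcodes under 500 genes or over 20% mitochondrial UMIs, 2314 cells of the library with supplements at 14 dpi remained, 3716 of that without and 4492 of the 4 dpi library. They held 36782509, 45855979 and 12202809 unique molecular identifiers (UMIs), with medians of 14380.5, 10664 and 2312.5 per cell. The 4 dpi library was therefore shallower per cell, and the ribosomal protein share of UMIs was 13.9% with supplements, 19.7% without and 20.8% at 4 dpi. Between 3 and 5 cell barcodes were shared by any pair of libraries. Cells were given a state from marker UMIs after each cell was thinned to 1000 UMIs. A cell with at least 3 UMIs of 27 division genes was dividing-marker, and the others were neuron-marker or fibroblast-marker when at least 3 UMIs came from the larger of 2 lists of 20 genes. The neuron-marker share was 74.5% with supplements, 53.8% without and 7.90% at 4 dpi. Fibroblast-marker cells made up 12.3%, 29.6% and 47.6%, and dividing-marker cells 8.50%, 8.64% and 34.0%. A state is a range of marker counts and not a cell type, and 13.8%, 19.1% and 30.1% of cells lay near a cut. Markers of other lipid-active cells were scarce: the 8 adipocyte genes summed to 40.5, 29.03 and 9.42 counts per 1000000 UMIs (CPM), with 1, 1 and 3 of them at 0, and the 8 genes of Schwann cells and oligodendrocytes to 29.9, 29.2 and 19.3 CPM, with 1 at 0 in each library. The 6 astrocyte genes summed to 55.5, 47.9 and 15.7 CPM in the same libraries, above the adipocyte genes in each. The adipocyte genes were uneven between states without supplements, at 79.3 CPM in fibroblast-marker and 5.59 CPM in neuron-marker cells. With supplements these states had 41.5 and 44.5 CPM, and at 4 dpi 13.0 and 11.8 CPM.

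All members were detected in each library, and both arms stood highest without supplements. The sterol arm summed to 1373 CPM with supplements at 14 dpi, to 1495 CPM without them and to 1063 CPM at 4 dpi. The fatty acid arm summed to 825, 1148 and 683 CPM in the same libraries. The order of the libraries was thus the same for both arms, with 4 dpi lowest, and neighbours in that order did not overlap in their counting intervals. Within it, single members went other ways, as the plot of members by library shows. Because reads come from the 3′ ends of transcripts and transcript capture differs by gene, levels are compared between libraries and not between genes.

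**Figure D1:**
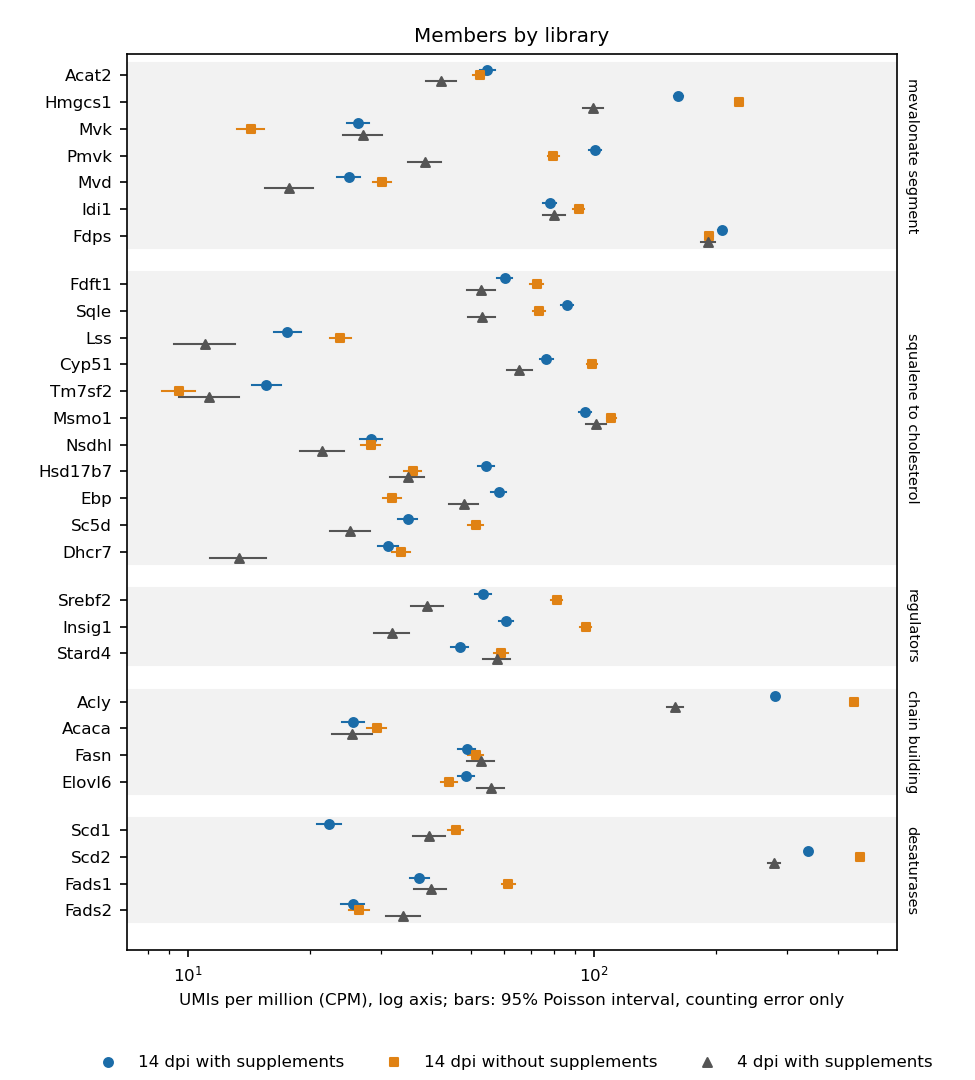
CPM (log axis) of each member in the 3 libraries, grouped by role, with 95% Poisson intervals that cover counting error only. Most members are lowest at 4 dpi, whereas Mvk, Tm7sf2, Ebp and Elovl6 are lowest without supplements, and Scd1, Stard4, Fads1, Fads2, Msmo1, Idi1 and Fasn are lowest with supplements at 14 dpi.

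With over without supplements at 14 dpi, members of the sterol arm differed in both directions and the fatty acid arm was lower as a sum. The 3 regulators and carriers, Acly and 3 of the 4 desaturases were lower, and Mvk, Ebp, Tm7sf2 and Hsd17b7, enzymes scattered through the sterol arm, were higher. The other sterol enzymes, Hmgcs1, Lss and Sc5d among them on the low side, lay between log2 ratios of -0.56 and 0.34. The sterol arm as a sum differed by a log2 ratio of -0.12 (95% interval -0.14 to -0.11), with 9 members above 0 and 12 below. The fatty acid arm differed by -0.48 (-0.50 to -0.46), with 1 member above 0 and 7 below. Over all 8894 symbols with a mean of at least 10 CPM the median log2 ratio was 0.03, and 52.8% of them were above 0. All 29 members passed this filter. The neuron markers summed to 11577 CPM with supplements and 6782 CPM without, and the fibroblast markers to 3101 and 4756 CPM; their part in these ratios was not tested beyond the ratios within states given further on.

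The counts past a fold are close to the background. At 2-fold, 0 members were higher, against 3.88% of all symbols, and 1 was lower, Scd1, against 4.49%. At 1.5-fold, 4 members were higher, against 12.5% of symbols, and 5 were lower, against 12.4%. In either direction, 8.37% of symbols passed 2-fold and 24.8% passed 1.5-fold.

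Scd1 encodes stearoyl-CoA desaturase 1, which puts the double bond into stearate and palmitate. It stood at 22.3 CPM with supplements, 45.7 CPM without and 39.3 CPM at 4 dpi, a log2 ratio of -1.03 with over without supplements (-1.15 to -0.92). The library with supplements was the low one. Its paralogue Scd2, the main form in brain, stood at 337 CPM with supplements, 452 CPM without and 278 CPM at 4 dpi, a log2 ratio of -0.42 with over without (-0.46 to -0.39). The share of Scd1 among the UMIs of both genes was 6.22% with supplements (exact binomial 95% interval 5.81 to 6.64), 9.19% without (8.81 to 9.57) and 12.4% at 4 dpi (11.4 to 13.5). The share of Scd1 was thus lowest with supplements at 14 dpi. The handling of reads that match both paralogues was not given in the sources used here.

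Fads1, the delta-5 desaturase of polyunsaturated fatty acids, stood at 37.2 CPM with supplements, 61.7 CPM without and 39.7 CPM at 4 dpi. Its log2 ratio with over without supplements was -0.73 (-0.82 to -0.63), while that of the delta-6 desaturase Fads2 was -0.05 (-0.17 to 0.07). Acly, ATP citrate lyase, makes the cytosolic acetyl-CoA that both arms start from. It stood at 279.8 CPM with supplements, 437.1 CPM without and 158.5 CPM at 4 dpi, a log2 ratio of -0.64 with over without (-0.68 to -0.61). The enzymes that build and extend the chain from it were closer to level, with log2 ratios of -0.19 for acetyl-CoA carboxylase Acaca, -0.07 for fatty acid synthase Fasn and 0.14 for the elongase Elovl6. Acly, Scd1, Scd2 and Fads1 had the 4 lowest ratios of the fatty acid arm.

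The 3 members that are not enzymes were lower with supplements, and their sum differed by -0.55 (-0.60 to -0.51). Insig1, which retains SREBP in the endoplasmic reticulum and is itself an SREBP target, stood at 60.9 CPM with supplements, 95.6 CPM without and 31.8 CPM at 4 dpi (log2 ratio with over without -0.65, -0.73 to -0.58). Srebf2, which encodes SREBP-2, had 53.4, 81.1 and 38.8 CPM in these libraries (-0.60, -0.68 to -0.52). Stard4, a carrier of cholesterol between membranes, had a log2 ratio of -0.34 (-0.43 to -0.25).

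Within the mevalonate segment, which leads from acetyl-CoA to farnesyl diphosphate, neighbouring enzymes differed in opposite directions. Hmgcs1, HMG-CoA synthase at the entry, stood at 161.8 CPM with supplements, 228.0 CPM without and 99.9 CPM at 4 dpi, a log2 ratio of -0.49 with over without (-0.54 to -0.45). Mvk, mevalonate kinase, stood at 26.3 CPM with supplements, 14.3 CPM without and 27.0 CPM at 4 dpi, a log2 ratio of 0.88 with over without (0.74 to 1.03). For Mvk the library without supplements was the low one, and the other 2 were level. Pmvk, the next kinase, had a log2 ratio of 0.34, Mvd -0.27, Idi1 -0.24, Fdps 0.10 and Acat2, the thiolase at the start, 0.06. The segment sum differed by -0.08 while the median of its 7 members was 0.06, so that the sum and the median had opposite signs.

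In the segment from squalene to cholesterol, 3 of the 4 highest ratios of the whole set were found. Ebp, the sterol isomerase, stood at 58.5 CPM with supplements, 31.9 CPM without and 47.9 CPM at 4 dpi (log2 ratio with over without 0.87, 0.78 to 0.97). Tm7sf2, a sterol reductase, stood at 15.6, 9.51 and 11.3 CPM in that order (0.72, 0.54 to 0.90). Hsd17b7, the ketosteroid reductase of the demethylation steps, stood at 54.4, 35.9 and 34.8 CPM (0.60, 0.51 to 0.69). Sc5d had the lowest ratio of this segment at -0.56, followed by Lss at -0.43 and Cyp51 at -0.37, and the segment sum differed by -0.03 (-0.0552 to -0.0023). The last step of the Kandutsch-Russell route, Dhcr7, was at -0.11 (-0.22 to 0.01). Of the members, Fdft1, Tm7sf2 and Acaca overlap another protein-coding gene in the RefSeq annotation, with strand handling not given in the sources used here.

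The states take different shares of the 14 dpi libraries, so the same ratio was taken within each. In neuron-marker cells the fatty acid arm summed to 798 CPM with supplements and 1222 CPM without, a log2 ratio of -0.62 (-0.64 to -0.59), with all 8 members below 0. In fibroblast-marker cells it summed to 991 CPM with supplements and 1077 CPM without, a log2 ratio of -0.12 (-0.17 to -0.07), and in dividing-marker cells the ratio was -0.27 (-0.34 to -0.21). The gap in the fatty acid arm was therefore widest among neuron-marker cells, a difference between states that was not tested. For the sterol arm the ratios were -0.19 in neuron-marker cells, -0.08 in fibroblast-marker cells and -0.08 in dividing-marker cells. The medians over all symbols in these states were -0.03, 0.06 and 0.10. They differ between states by about as much as the sterol ratios do, so the order of the sterol ratios is not read as a result.

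Several members had the same direction in all 3 states. Mvk had log2 ratios of 0.73 in neuron-marker, 1.18 in fibroblast-marker and 1.04 in dividing-marker cells. Ebp had 0.93, 1.21 and 0.71 in the same states. Insig1 had -0.59, -0.79 and -0.59, Srebf2 -0.57, -0.63 and -0.95, and Scd1 -0.92, -0.73 and -0.58. For each of these the interval kept the sign of the ratio in all 3 states. Acly was further apart in neuron-marker cells, with 286.5 CPM with supplements and 504.1 CPM without (-0.82, -0.86 to -0.77), than in fibroblast-marker cells, with 278.8 and 364.7 CPM (-0.39, -0.48 to -0.29). Scd2 had 316 CPM with supplements and 465 CPM without in neuron-marker cells (-0.55), against 463 and 452 CPM in fibroblast-marker cells (0.03, -0.04 to 0.11).

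In neuron-marker cells 0 members passed 2-fold in either direction, against 8.03% of symbols. At 1.5-fold, 7 members were lower there, against 12.9% of symbols, and 2 were higher, against 10.3%, where 23.2% of symbols passed in either direction. The lower ones were Hmgcs1, Lss, Insig1, Stard4, Acly, Scd1 and Fads1. In fibroblast-marker cells Mvk and Ebp were the 2 members more than 2-fold higher, against 5.69% of symbols, out of 28 members that passed the filter. In dividing-marker cells 2 members were more than 2-fold higher, Mvk and Hsd17b7, against 6.57%.

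**Figure D2:**
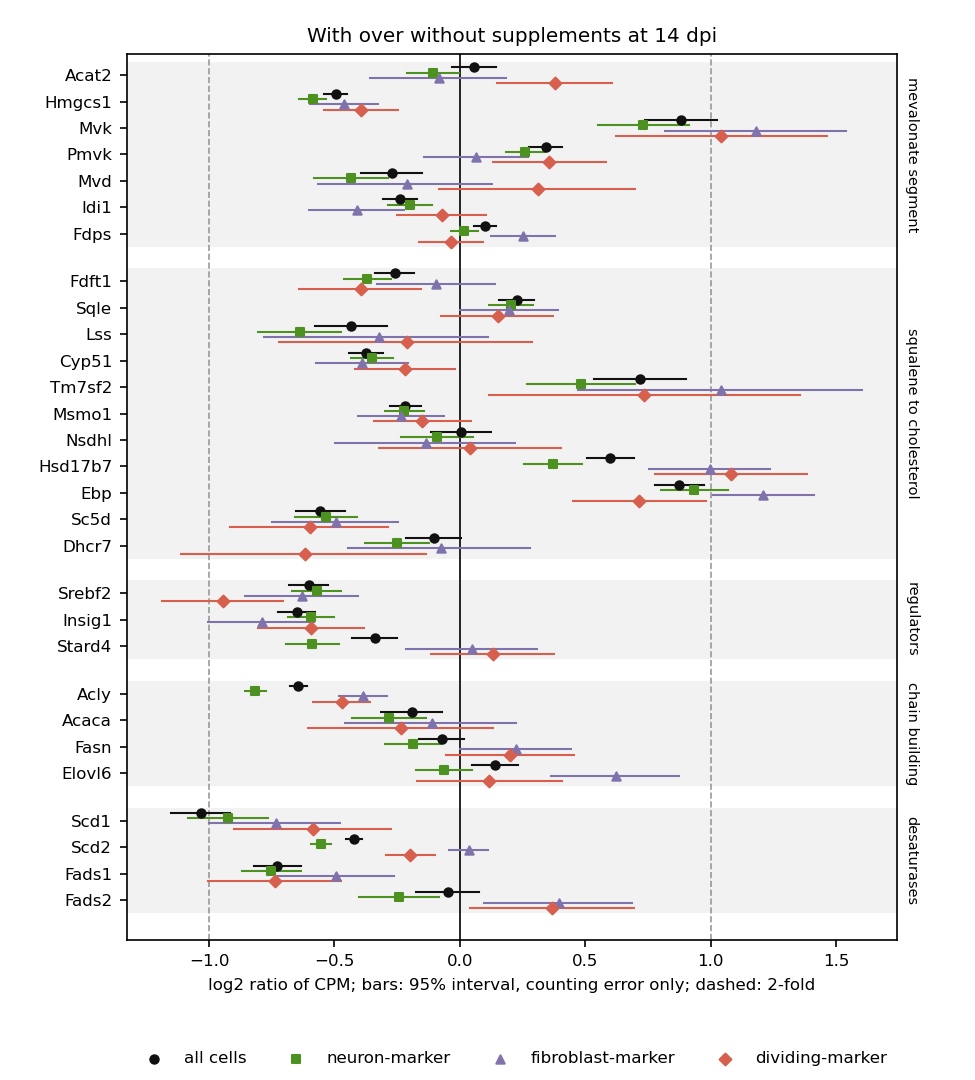
Log2 ratio of CPM with over without supplements at 14 dpi for each member in all cells and in the 3 marker states, with 95% intervals that cover counting error only and dashed lines at 2-fold. Mvk, Ebp and Hsd17b7 lie right of 0 in all 3 states, and Hmgcs1, Insig1, Srebf2, Sc5d, Acly, Scd1 and Fads1 are among those left of 0 in all 3. Tm7sf2 is drawn in fibroblast-marker cells although its mean there is under 10 CPM.

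Over all symbols at 14 dpi, 3.88% were more than 2-fold higher with over without supplements, 4.49% lower and 8.37% in either direction. The small counts in the other gene lists that follow are not read as results about those lists. Among 16 other genes of sterol regulation and uptake, 15 passed the filter, with 0 more than 2-fold higher with supplements and 1 lower. That gene was Lbr, which encodes the nuclear membrane protein with sterol reductase activity, at 15.2 CPM with supplements and 30.9 CPM without (log2 ratio -1.02). Scap, the carrier of SREBP, went the other way, at 24.6 and 15.8 CPM (0.64, 0.50 to 0.78). Among 15 other genes of fatty acid and glycerolipid synthesis, 11 passed the filter. There Lpin1, a phosphatidate phosphatase, was the 1 more than 2-fold lower, at 18.02 CPM with supplements and 42.3 CPM without (-1.23). Mid1ip1, which promotes the polymerisation of acetyl-CoA carboxylase, was highest on that list at 93.3 and 53.6 CPM (0.80). Of 12 genes of sterol efflux and the liver X receptor, 9 passed and 0 were past 2-fold in either direction, with Apod at 29.3 and 16.3 CPM (0.85) and Soat1, which esterifies cholesterol, at 21.4 and 37.8 CPM (-0.82) at the ends.

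At 14 dpi over 4 dpi, both with supplements, both arms summed higher, and the sterol arm did so across most of its members. Time, sort gate, dissociation and depth differ together here and cannot be told apart. The neuron markers summed to 11577 CPM at 14 dpi and 1826 CPM at 4 dpi, with 20 of 20 more than 2-fold higher, the fibroblast markers to 3101 and 7393 CPM, and the division markers to 803 and 2813 CPM, with 27 of 27 more than 2-fold lower. Their part in the sums over all cells was not tested beyond the ratios within states. The sterol arm had a log2 ratio of 0.37 (0.34 to 0.40), with 17 of 21 members above 0. The fatty acid arm had 0.27 (0.24 to 0.31), but only 3 of its 8 members were above 0 and its median was -0.10, since Acly and Scd2 carry most of its UMIs. Over all 8742 symbols the median was 0.10 and 55.6% were above 0. Of the members, 2 were more than 2-fold higher, Pmvk and Dhcr7, against 13.0% of symbols, and 0 were more than 2-fold lower, against 9.28%. In either direction the background was 22.3% at 2-fold and 42.0% at 1.5-fold.

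Pmvk, phosphomevalonate kinase, stood at 100.9 CPM at 14 dpi and 38.4 CPM at 4 dpi (log2 ratio 1.40, 1.26 to 1.54). Dhcr7, the reductase that completes cholesterol, stood at 31.2 and 13.4 CPM (1.22, 0.99 to 1.47). Insig1 followed at 0.94 (0.78 to 1.10), Acly at 0.82 (0.75 to 0.89) and Srebf2 at 0.46 (0.31 to 0.61). The lowest was Scd1 at -0.82 (-0.98 to -0.65), then Fads2 at -0.42, Stard4 at -0.30 and Elovl6 at -0.20. Set against the same 4 dpi library, the 14 dpi library without supplements had 8 members more than 2-fold higher, against 13.4% of symbols. These were Hmgcs1, Pmvk, Lss, Sc5d, Dhcr7, Srebf2, Insig1 and Acly, with Insig1 at 1.59 and Acly at 1.46 the furthest.

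The time difference was largest among fibroblast-marker cells, though the difference between states was not tested. There the sterol arm stood at 1237 CPM at 14 dpi and 808 CPM at 4 dpi (log2 ratio 0.62, 0.56 to 0.68), with 19 of the 20 members that passed the filter above 0. The fatty acid arm stood at 991 and 605 CPM (0.71, 0.64 to 0.78), with all 8 members above 0, where the median over all symbols was 0.05. In this state 4 members were more than 2-fold higher, against 5.93% of symbols, and 15 of 28 were more than 1.5-fold higher, against 14.7%. The 4 were Pmvk (1.12), Hsd17b7 (1.00), Dhcr7 (1.20) and Insig1 (1.14). In neuron-marker cells, by contrast, the sterol arm stood at 1386 CPM at 14 dpi and 1193 CPM at 4 dpi (0.22, 0.13 to 0.31), and the fatty acid arm at 798 and 900 CPM (-0.17, -0.28 to -0.07). All 4 desaturases were below 0 there, with Scd1 at 18.5 CPM at 14 dpi and 51.9 CPM at 4 dpi (-1.49, -1.94 to -1.01). Scd1 was the 1 member more than 2-fold lower, against 9.65% of symbols. In dividing-marker cells the sterol arm was at 0.18, with 13 of 21 members above 0, and the fatty acid arm at 0.29, with 3 of 8 above 0. Over all symbols the median in dividing-marker cells was 0.10 and 58.4% were above 0, so the sterol count there is close to the background. The 4 dpi neuron-marker cells number 346, with a median of 2062.5 UMIs, so the intervals of single members are wide there.

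**Figure D3:**
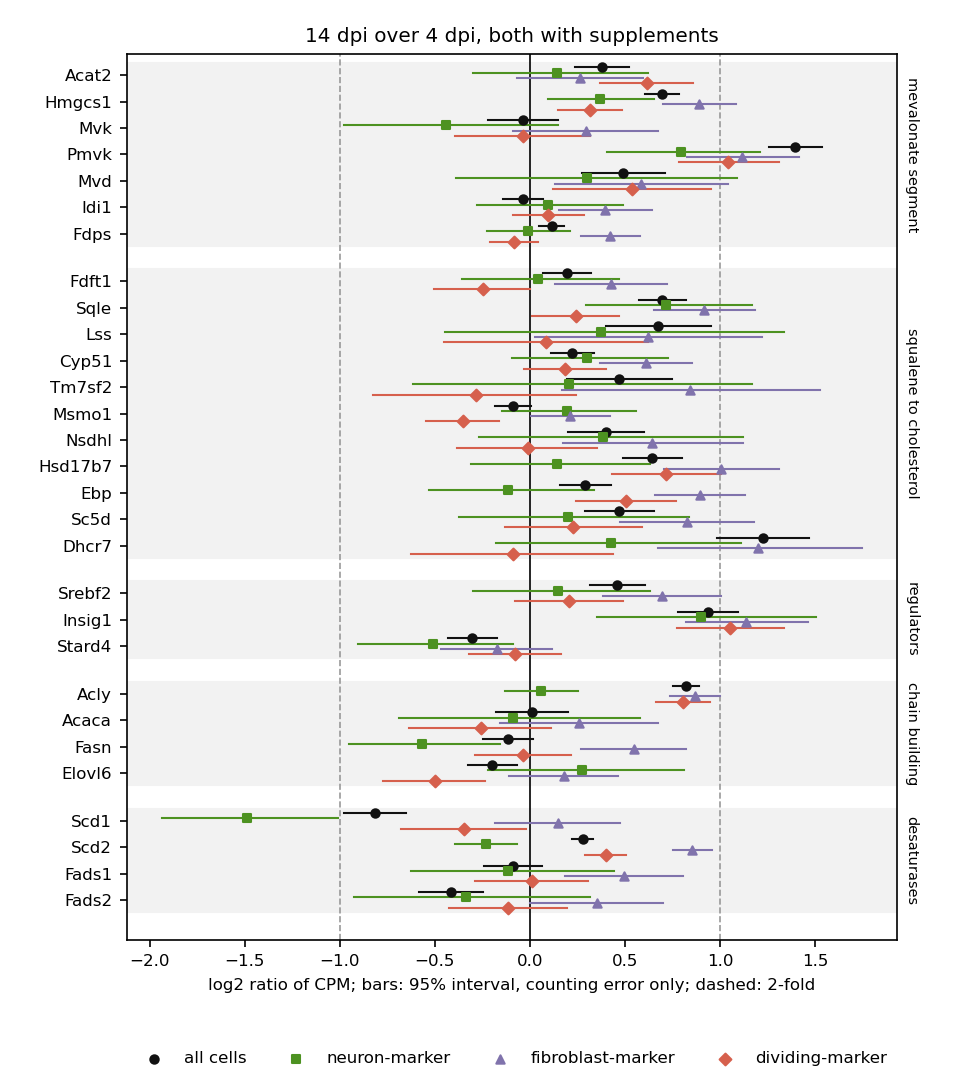
Log2 ratio of CPM at 14 dpi over 4 dpi, both with supplements, for each member in all cells and in the 3 marker states, with 95% intervals that cover counting error only and dashed lines at 2-fold. Of the 28 members that passed the filter in fibroblast-marker cells, all but Stard4 lie right of 0 (Tm7sf2, drawn too, is under 10 CPM), while in neuron-marker cells the desaturases lie left of 0.

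Between states of 1 library, the sterol arm was higher in neuron-marker than in fibroblast-marker cells in each of the 3 libraries, by an amount that was largest at 4 dpi in a comparison between libraries that was not tested. The log2 ratio was 0.16 (0.12 to 0.21) with supplements at 14 dpi, 0.27 (0.25 to 0.30) without, and 0.56 (0.46 to 0.66) at 4 dpi. The medians over all symbols were 0.13, 0.21 and 0.16, so at 14 dpi most of the difference was shared with genes at large. With the median of all symbols set to 0, the ratio with supplements was 0.0361 with an interval that spans 0 (-0.00642 to 0.0789), and 10 of 21 members were above 0, against 16 before; without supplements 14 of 21 were. At 4 dpi all 21 sterol members were above 0, where 63.1% of symbols were. On the median-centred scale 20 of the 21 were above 0, and Msmo1 went to -0.07. In either direction 12.3% of symbols passed 2-fold there and 31.4% passed 1.5-fold. The 4 dpi members more than 2-fold higher were Pmvk (1.08), Tm7sf2 (1.13) and Dhcr7 (1.49), against 7.23% of symbols. The states share 1 library each, so cells of both went through the same sort and dissociation.

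At 14 dpi 0 members passed 2-fold between these states, against 17.2% of symbols with supplements and 21.1% without. At 1.5-fold these shares of symbols were 35.6% and 41.0%. Dhcr7 and Pmvk were among the highest with supplements, at 0.72 and 0.76. Dhcr7 stood at 34.9 CPM in neuron-marker and 21.3 CPM in fibroblast-marker cells there, and at 41.5 and 22.4 CPM without supplements (0.89). Ebp was higher in fibroblast-marker cells at 14 dpi, with log2 ratios of -0.82 and -0.54 with and without supplements, and 0.19 (-0.29 to 0.65) at 4 dpi.

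The fatty acid arm did not keep its direction between libraries. Neuron-marker over fibroblast-marker cells, it was at -0.31 (-0.36 to -0.26) with supplements at 14 dpi, 0.18 (0.15 to 0.21) without, and 0.57 (0.45 to 0.69) at 4 dpi. Against the shift of all symbols the ratio without supplements goes to -0.02. With supplements all 4 desaturases were lower in neuron-marker cells, with Scd1 at 18.5 CPM in neuron-marker and 36.3 CPM in fibroblast-marker cells and Scd2 at 316 and 463 CPM. At 4 dpi the order of both was the other way, with Scd1 at 51.9 and 32.8 CPM and Scd2 at 372 and 256 CPM. The Scd1 values at 4 dpi rest on 44 UMIs in neuron-marker and 167 UMIs in fibroblast-marker cells.

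**Figure D4:**
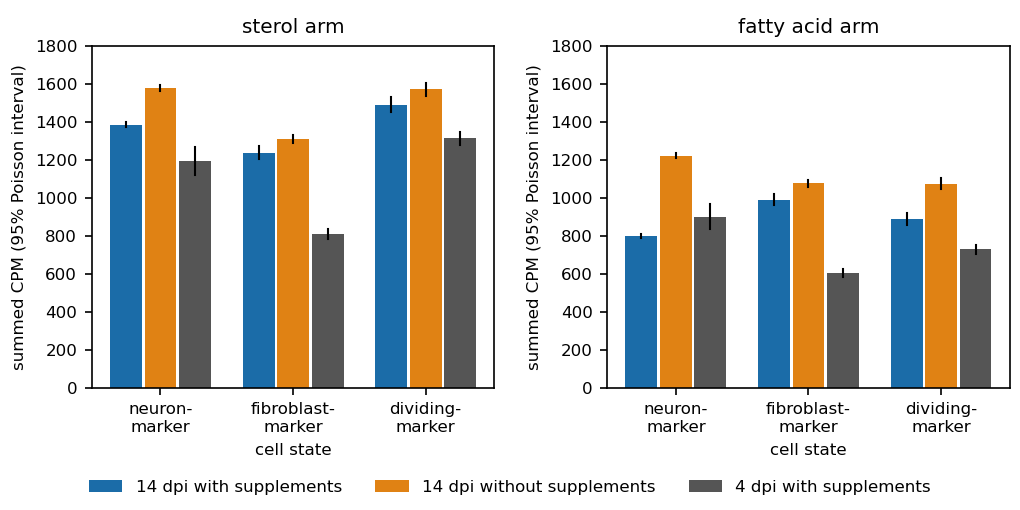
Summed CPM of the sterol arm (left) and the fatty acid arm (right) in neuron-marker, fibroblast-marker and dividing-marker cells of the 3 libraries, with 95% Poisson intervals that cover counting error only. The bars of both arms are lowest in fibroblast-marker cells at 4 dpi, and neuron-marker cells with supplements at 14 dpi have a lower fatty acid arm than those without.

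At 4 dpi the sterol arm made up a larger share of the UMIs of dividing-marker cells than of the UMIs of the other cells. The sterol arm stood at 1312 CPM in dividing-marker cells and 903 CPM in the other cells, a log2 ratio of 0.54 (0.49 to 0.59), with all 21 members above 0, where 45.2% of symbols were and the median was -0.04. The sterol count was 20 of 21 when a state needed 5 UMIs. At 1.5-fold, 10 members were higher, against 7.71% of symbols, and at 2-fold 1, Tm7sf2, against 3.92%. In either direction 5.76% of symbols passed 2-fold and 16.3% passed 1.5-fold. The highest were Tm7sf2 (1.05), Nsdhl (0.95), a dehydrogenase of the demethylation steps, Idi1 (0.85), the isopentenyl diphosphate isomerase, and Fdft1 (0.72), squalene synthase. Idi1 stood at 109 CPM in dividing-marker cells and 60.6 CPM in the others. Acly was the lowest at -0.18 (-0.32 to -0.05), and the fatty acid arm as a sum was at 0.16 (0.09 to 0.22).

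At 14 dpi the difference was smaller, with the sterol arm at 0.13 with supplements and 0.08 without. Above 0 were 12 of 21 and 11 of 20 members, where 47.5% and 42.6% of symbols were. Idi1 was still at 0.67 and 0.49, and Acat2 at 0.67 and 0.30. Dhcr7 went the other way, at 14.4 CPM in dividing-marker cells and 33.1 CPM in the others with supplements (-1.20, -1.63 to -0.80), and at 22.0 and 35.0 CPM without (-0.67, -0.95 to -0.39). At 4 dpi its ratio was 0.32 (-0.15 to 0.78). The other cells differ in make-up between libraries. They were mostly fibroblast-marker at 4 dpi, where that state had a sterol arm of 808 CPM. At 14 dpi they were mostly neuron-marker, a state at 1386 CPM with supplements and 1579 CPM without. Neuron-marker cells of 4 dpi stood at 1193 CPM, against 1312 CPM in dividing-marker cells. The part of this make-up in the smaller difference at 14 dpi was not tested.

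The segments of the pathway varied together from cell to cell inside each 14 dpi library. Cells with at least 10000 UMIs were thinned to 10000 UMIs each, which kept 1655 cells with supplements and 2055 without and left out 659 and 1661. The sterol arm then averaged 13.9 ± 10.2 UMIs per cell with supplements and 15.1 ± 10.9 without (SD over cells). The 10th to 90th percentiles were 4 to 28 and 4 to 30 UMIs. The variance over the mean was 7.39 with supplements and 7.86 without, where counting error alone gives about 1. The fatty acid arm averaged 8.20 ± 5.93 and 11.5 ± 6.67 UMIs, with variance over mean of 4.29 and 3.85.

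UMIs of the mevalonate segment and of the squalene-to-cholesterol segment share no gene, and across cells they correlated with a Pearson r of 0.670 with supplements and 0.695 without (Spearman rho 0.594 and 0.686). With cells thinned to 2000 UMIs, which kept 2231 cells with supplements, 3657 without and 2733 at 4 dpi, the r was 0.330, 0.385 and 0.356, with fewer UMIs of each segment per cell. Within states the r ran through 0.653 in neuron-marker, 0.710 in fibroblast-marker and 0.675 in dividing-marker cells with supplements, and 0.675, 0.764 and 0.688 without. The sterol and fatty acid arms correlated at 0.534 in both libraries. The sums of both segments thus varied together inside each marker state. Cells of 1 library share its preparation, so these values describe the library and carry no p-value.

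Each gene was then set against the summed UMIs of the sterol arm, leaving the gene itself out of the sum. Over 8758 symbols with supplements and 8843 without, the median r was -0.00290 and 0.00339 and the 99th percentile 0.161 and 0.160. With supplements all 21 sterol members stood above the 99th percentile. Without supplements 19 of the 20 members at 10 CPM or more did, and the exception was Ebp at 0.106. The closest were Hmgcs1 (0.584 with supplements and 0.662 without), Idi1 (0.574 and 0.540), Fdps (0.544 and 0.549) and Msmo1 (0.457 and 0.478). Among the weakest were Tm7sf2 (0.184 and 0.109), Ebp (0.192 and 0.106), Srebf2 (0.205 and 0.189) and Mvk (0.273 and 0.162). Tm7sf2 and Ebp, both higher with supplements, were the 2 lowest of the sterol arm in each library. Low-count genes have lower r by counting noise alone, and Tm7sf2 averaged 0.163 UMIs per thinned cell with supplements and 0.0949 without.

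In the fatty acid arm, Scd2 followed the sterol arm most closely (0.455 with supplements and 0.490 without), and Acaca least (0.170 and 0.0799). Of the 20 symbols with the highest r in both libraries, ranked by the lower of the 2 values, 15 were members. Among the others were Tuba1a (0.294 and 0.341), an alpha-tubulin, and Tecr (0.264 and 0.285), an enoyl-CoA reductase of very long chain fatty acids, both named after their values were seen. Efflux genes did not follow, with Abca1 at -0.0369 and -0.0217, and Srebf1, which encodes SREBP-1, was at 0.0119 and 0.0320. Srebf1 is a low-count gene like Tm7sf2, with a mean of 0.0779 UMIs per thinned cell with supplements and 0.129 without.

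The sterol arm was also set against measures of the cells, whose part in the shared variation was not tested. Its Spearman rho with the total UMIs of the cell was 0.0371 with supplements and 0.0617 without, and with the mitochondrial share 0.114 and 0.153. With the ribosomal protein share rho was -0.0906 and -0.220, and with the thinned UMIs of the neuron markers 0.194 and 0.219. With fibroblast markers it was -0.102 and -0.131, and with division markers -0.00617 and -0.0519.

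**Figure D5:**
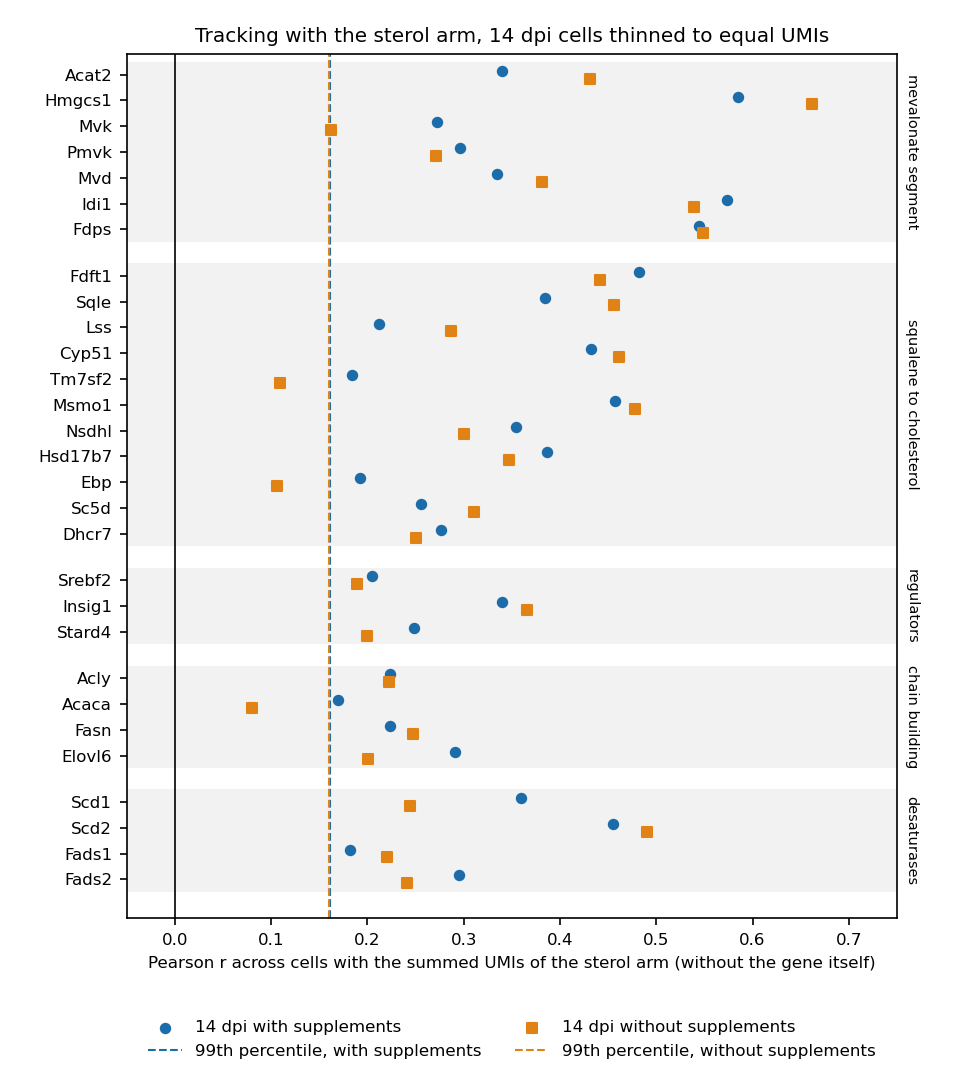
Pearson r across 14 dpi cells, each thinned to 10000 UMIs, between the UMIs of each member and the summed UMIs of the sterol arm without that member, with and without supplements. Dashed lines mark the 99th percentile over all symbols (0.161 and 0.160), and the members left of it are Ebp, Tm7sf2 and Acaca without supplements.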

How the data were processed

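The 3 single-cell libraries are each the 1 library of its group. The deposited matrices hold whole-number UMI counts per gene and cell, filtered by the authors with Cell Ranger 6.1.1 per the file headers, and the genome build is GRCm39 per the submitters' processing notes. Counting of reads shared by paralogues or overlapping genes: not given in the sources used here.

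Barcodes with under 500 genes or over 20% mitochondrial UMIs were removed, which took out 153, 177 and 110 barcodes. UMIs were summed per library and state and scaled to 1000000 UMIs of those cells (CPM). Ratios are log2 of CPM ratios, counted where the mean CPM was at least 10. Their 95% intervals, and the Poisson and Clopper-Pearson intervals of levels and shares, are exact and cover counting error only. With 1 library per group no test was made, and a count past 2-fold or 1.5-fold is set beside its share of all symbols. States came from cells thinned to 1000 UMIs. Correlations across cells used cells thinned to 10000 UMIs, with a gene left out of its own sum. No doublet caller was run. The members and lists were chosen with earlier results of these data known. Named genes are, per comparison, members among the 4 highest and 4 lowest ratios plus Insig1 and Srebf2, and from each other list up to 4 with the highest and lowest ratios. The remaining members named were added outside that rule after their values were seen. Some genes of the other lists are not reported here. Promoters are from RefSeq (GRCm38.p6). The log2 ratios and their intervals were tested on simulated counts, and the thinning was checked on cells of these data. The other steps were not tested on simulated data. Python 3.11.15, numpy 2.4.6, scipy 1.17.1 and pandas 2.3.3 were used. Alternatives were all deposited barcodes, median-ratio scaling, leaving out the 5% of cells with most UMIs, other thresholds for states, folds and CPM, and states without the dividing class, the last added after the data were seen.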

Additional observations from a re-analysis of the deposited data

Results flagged for a closer look

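Between neuron-marker and fibroblast-marker cells, the fatty acid arm and both stearoyl-CoA desaturases took opposite directions in different libraries, and the difference between libraries was not tested. The log2 ratio of the fatty acid arm, neuron-marker over fibroblast-marker cells, was -0.31 at 14 dpi with supplements, 0.18 in the library without them and 0.57 at 4 dpi. For Scd1 it was -0.98 with supplements, -0.79 without and 0.66 at 4 dpi, where neuron-marker cells held only 44 UMIs of Scd1. For Scd2 it was -0.55, 0.04 and 0.54 in the same libraries.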

How the results depend on the processing

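Arm and single member ratios were recomputed under other settings for 7 of the 15 comparisons. The ratios with over without supplements within fibroblast-marker and dividing-marker cells were not recomputed. Nor were the time ratios within any state or the dividing-marker ratios outside the 4 dpi library. The ratios of the library without supplements over the 4 dpi library were also left as they were. Of 50 arm values, 49 kept their sign, and 27 stayed within the counting interval of the value reported. Of single member ratios, 17 of 203 changed sign under median-ratio scaling, 6 of 203 without the 5% of cells with most UMIs, 4 of 145 with 5 UMIs for a state, 3 of 116 without the dividing class and 0 of 58 with all deposited barcodes. The causes of these moves were not tested.

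With median-ratio scaling, with over without supplements gave -0.16 for the sterol and -0.51 for the fatty acid arm, and -0.15 and -0.58 in neuron-marker cells. The 14 dpi over 4 dpi ratios became 0.27 and 0.18. Neuron-marker over fibroblast-marker cells, the sterol arm became 0.03613 with supplements, 0.0668 without and 0.40 at 4 dpi, and the fatty acid arm -0.44, -0.0222 (the 1 change of sign) and 0.41. Without the 5% of cells with most UMIs, with over without supplements gave -0.08975 and -0.44 for the sterol and fatty acid arms, and -0.16 and -0.59 in neuron-marker cells. The same setting gave 0.42 for the sterol arm at 14 dpi over 4 dpi, and 0.31 for neuron-marker over fibroblast-marker cells without supplements. With 5 UMIs for a state, that last ratio was 0.34 and the dividing-marker ratio at 4 dpi 0.44. Without the dividing class, the neuron-marker over fibroblast-marker ratio was 0.23 without supplements and 0.44 at 4 dpi for the sterol arm, and -0.25 with supplements for the fatty acid arm.

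At 1.5-fold, members past the fold numbered 9 with over without supplements (1 at 2-fold), 9 at 14 dpi over 4 dpi (2) and 9 in neuron-marker cells (0). Between neuron-marker and fibroblast-marker cells they numbered 5 with supplements (0), 6 without (0) and 14 at 4 dpi (3), and for dividing-marker cells at 4 dpi 10 (1). At 2-fold, neuron-marker over fibroblast-marker cells gave 1 with supplements under median-ratio scaling, without the top 5% of cells and with 5 UMIs for a state. Without supplements it gave 1 with 5 UMIs or a mean CPM of at least 1. At 4 dpi it gave 1 under median-ratio scaling, 6 with 5 UMIs and 0 without the dividing class. The dividing-marker count was 0 without the top 5% of cells and with 5 UMIs. Shares of all symbols past 2-fold under these other settings are not reported here. The 2-fold counts under them therefore have no background and are not read as results about the members.

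No paired analysis was possible because each group is 1 library and the groups share fewer than 2 replicate numbers. The setting with all deposited barcodes was not run between states, which need filtered cells. The 4 dpi library has a median of 2312.5 UMIs per cell, and single members have wide intervals there.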
